A study of Homo sapiens with 24 samples.

Results

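The acyl-CoA thioesterases listed here are 8 genes (ACOT1, ACOT2, ACOT4, ACOT7, ACOT8, ACOT9, ACOT11 and ACOT13) out of 20046 genes with a named probe, and 17 probes out of 47323. The genes were selected on measured values: ACOT1 and ACOT2 were picked for being lower in HT1080 knockout clones, and every probe annotated to the listed family members was then taken. The HT1080 comparison and the difference between HT1080 and HCT116 are therefore given for these genes as descriptions, without a test. ACOT6 and ACOT12 of the same family were also measured and are not among the 8 listed.

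The study compared total RNA of human cell clones edited with TALENs (protein nucleases designed to cut at 1 site in the genome) to inactivate Rap1 (gene TERF2IP), a subunit of the telomere-binding shelterin complex. In HT1080, a fibrosarcoma line, knockout clones 8 and 21 were set against wild-type clones 2 and 9. In HCT116, a colorectal carcinoma line, knockout clones 10, 21 and 28 were set against wild-type clones 15, 20 and 23. In ARPE-19, a retinal pigment epithelium line, knockout clones 25 and 30 were set against wild-type clone 23 and the parental culture, which is counted as a clone below. Clones of HT1080 and HCT116 had 2 Illumina arrays each, and ARPE-19 clones had 1. No treatment was labelled, and the sources used here do not give the altered alleles of each clone. A difference between genotypes here is a difference between a few single clones, each of which may carry changes of its own.

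Every value is a log2 difference from the median of that probe in its own cell line. No source used here gives the log base, which is taken as 2; another base would scale all differences by a constant. No level is held in the table, so markers of the 3 lines could not be checked against their labels, the signal over background is unknown, and levels cannot be compared between genes or lines. Because of this centring, a probe whose arrays do not overlap between genotypes has one genotype above 0 and the other below it. TERF2IP, the targeted gene, differed by -2.61 ± 0.20 in HT1080 (SE, n = 2 and 2 clones; limma, adjusted p = 0.108). Its HCT116 clones overlapped (-0.63 ± 0.34, n = 3 and 3 clones; limma, adjusted p = 0.609), and in ARPE-19 it differed by 0.020 ± 0.12 (n = 2 and 2 clones; limma, adjusted p = 0.997). The labels are used below as given, and where the TERF2IP probe lies relative to the edited part of the gene is not given in the sources used here.

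Acyl-CoA thioesterases split acyl-CoA into a free fatty acid and coenzyme A, and so set how much activated fatty acid is available in each compartment of the cell. ACOT1, ACOT2, ACOT4 and ACOT6 are type I enzymes of closely related sequence, encoded side by side on chromosome 14. ACOT1 acts in the cytosol, ACOT2 in mitochondria and ACOT4 in peroxisomes, and in rodents they are known as targets of the fatty acid receptor PPARA. ACOT7, ACOT8, ACOT9, ACOT11 and ACOT13 are type II enzymes, which have another fold. ACOT1 and ACOT2 are nearly identical in sequence, so a probe for one may also bind the transcript of the other. The probe sequences were not used here, and which transcript each probe binds was not tested.

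The RefSeq start-site windows of ACOT2 and ACOT4, of 300 bases each (assembly GRCh38.p14), are shown because the genes are neighbours in the cluster and 1 ACOT2 probe was far lower in the HT1080 knockout clones while the ACOT4 probe overlapped between genotypes. The ACOT2 window is chr14:73568809-73569108 on the plus strand, and the ACOT4 window is chr14:73591623-73591922 on the plus strand. Capitals mark a match to TTAGGG, the repeat unit of human telomeres, read on the minus strand at position 83 of the window.
ACOT2: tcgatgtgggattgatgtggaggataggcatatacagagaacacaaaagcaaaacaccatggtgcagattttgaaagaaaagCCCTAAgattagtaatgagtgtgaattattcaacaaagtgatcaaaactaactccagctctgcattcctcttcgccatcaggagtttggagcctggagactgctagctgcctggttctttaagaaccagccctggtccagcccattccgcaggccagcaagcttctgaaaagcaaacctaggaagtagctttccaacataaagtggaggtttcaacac
ACOT4: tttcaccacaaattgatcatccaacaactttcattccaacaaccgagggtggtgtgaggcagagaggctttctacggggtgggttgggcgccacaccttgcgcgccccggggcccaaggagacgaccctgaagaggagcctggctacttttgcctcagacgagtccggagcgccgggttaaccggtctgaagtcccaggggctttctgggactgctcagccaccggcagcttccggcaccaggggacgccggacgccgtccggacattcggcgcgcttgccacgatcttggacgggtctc

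Windows were found for 7 of the 8 genes, all but ACOT1. TTAGGG on either strand was in 9.05% of 35116 windows of all genes, and the match in ACOT2 is given as a description. The second ACOT2 window (chr14:73568963-73569262, plus strand), which overlaps the first, holds no match. The motif is also in 2 of 4 ACOT7 windows. The nuclear receptor half-site AGGTCA, which receptors such as PPARA bind, was in 13.8% of all windows and, among the 7 genes, in 1 ACOT7 window. CCAAT, the box bound by the factor NF-Y, was in 34.6% of all windows, 3 times in that of ACOT8, once in that of ACOT9 and in 3 of the 4 ACOT7 windows.

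In HT1080, 1 of the 2 probes of ACOT1 and 1 of the 2 probes of ACOT2 were lower in every knockout array than in every wild-type array, by about the same amount, while the second probe of each gene differed far less. ACOT1 probe A (ILMN_1715543) stood at -0.59 and -0.63 in knockout clone 8 and at -0.55 and -0.79 in knockout clone 21. It stood at 0.73 and 0.62 in wild-type clone 2 and at 0.77 and 0.55 in wild-type clone 9. The clones of a genotype agreed closely, and the genotypes were parted by a gap of 1.11 between the nearest arrays. The clone means were -0.64 ± 0.05 in knockout and 0.67 ± 0.01 in wild-type clones (SD, n = 2 each), a difference of -1.31 ± 0.09 (SE), or 2.48-fold lower in the knockout clones. In this bulk RNA, fewer cells expressing a gene and less RNA per cell cannot be told apart.

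ACOT2 probe A (ILMN_1716237) stood at -0.99 and -0.46 in knockout clone 8 and at -0.61 and -0.63 in knockout clone 21. It stood at 0.54 and 0.54 in wild-type clone 2 and at 0.46 and 0.88 in wild-type clone 9. All 4 knockout arrays again lay below all 4 wild-type arrays, with a gap of 0.929. The difference was -1.28 ± 0.10, or 2.43-fold lower in the knockout clones. Among all 47323 probes, ACOT1 probe A ranked 32 and ACOT2 probe A ranked 36 from the lowest difference in HT1080. Both genes were picked on this difference, so the ranks are no separate finding.

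The second probes did not show this separation. ACOT1 probe B (ILMN_2121389) stood at -0.05 and 0.13 in knockout clone 8 and at 0.02 and -0.04 in clone 21, against 0.06 and -0.04 in clone 2 of the wild type, and 0.22 and -0.02 in clone 9. Its genotypes overlapped, with a difference of -0.039 ± 0.09. ACOT2 probe B (ILMN_2188959) stood at 0.03 and -0.11 in knockout clone 8 and at -0.03 and -0.20 in clone 21, against -0.15 and 0.26 in clone 2 of the wild type, and 0.08 and 0.34 in clone 9. Its clone means were parted (-0.21 ± 0.10) but its arrays overlapped, and the difference was 0.038 with the first array of each clone alone and -0.45 with the second. Both ACOT1 probes are annotated to transcript NM_001037161 and both ACOT2 probes to NM_006821, so the annotation alone does not separate the probes of a gene.

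**Figure D1:**
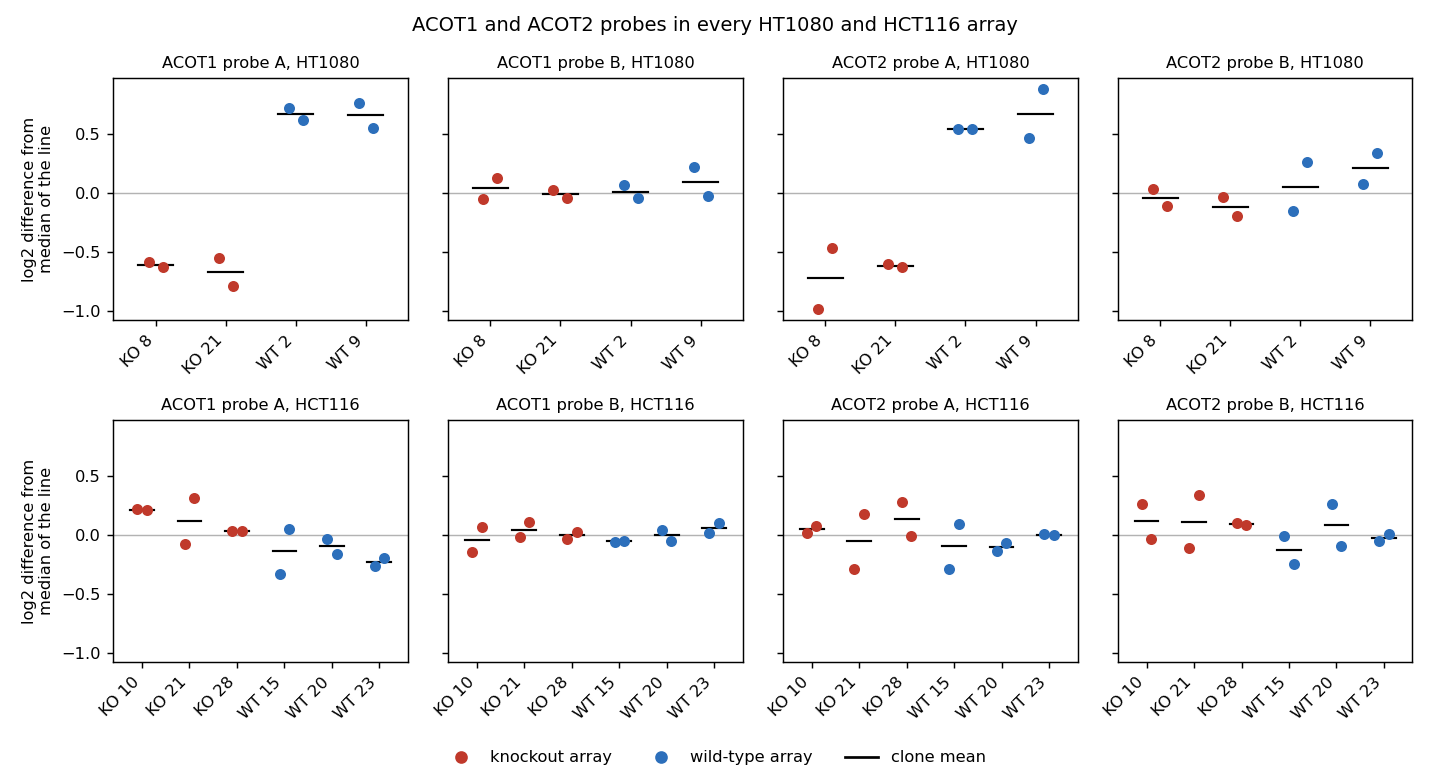
Log2 difference from the median of the line (vertical axis) in each array of the HT1080 clones (top) and HCT116 clones (bottom) for both probes of ACOT1 and ACOT2, with knockout in red, wild type in blue and the mean of each clone as a black bar. In HT1080 probe A of each gene lies below -0.4 in all knockout arrays and above 0.4 in all wild-type arrays, while probe B of each gene overlaps.

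Over the 10 HT1080 and HCT116 clones, ACOT1 probe A and ACOT2 probe A had a Pearson correlation of 0.958. Over the 6 HCT116 clones alone it was 0.394. The ACOT1 probes correlated with each other at 0.239 over 10 clones and -0.235 over the 6 HCT116 clones, and the ACOT2 probes at 0.685 and 0.408. ACOT1 probe A with ACOT2 probe B gave 0.748 over 10 clones and 0.734 over the 6, so within HCT116 the A probes were not the most alike pair. All these points share arrays and the centring per line. The values over 10 clones include the HT1080 difference on which both genes were picked. Within HCT116 none of these probes passed the test among clones of a genotype (limma F test, lowest adjusted p = 0.790), and the order of the pairs was not tested.

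ACOT4, the peroxisomal enzyme of the cluster, stood at -0.05 and 0.15 in HT1080 knockout clone 8 and at -0.07 and -0.01 in clone 21, against -0.20 and 0.09 in clone 2 of the wild type, and 0.05 and 0.01 in clone 9. The genotypes overlapped, and the difference was 0.020 ± 0.09. ACOT6, the last gene of the cluster, differed by -0.11 ± 0.11 in HT1080 (n = 2 and 2 clones; limma, adjusted p = 0.891), also with overlap. In this cluster of 6 probes, the HT1080 knockout clones were wholly lower on 3 by clone means, as were 25.3% of all probes. All 3 belong to ACOT1 and ACOT2, which were picked for being lower in these clones. By single arrays as well, the knockout clones were wholly lower on ACOT1 probe A and ACOT2 probe A.

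The protein-coding genes around the cluster were read in RefSeq order, 5 on each side, of which 9 of 10 had a probe. Placed by start position on the side of ACOT1, PAPLN, NUMB, HEATR4 and RIOX1 had 5 probes. All were lower in the HT1080 knockout clones and all parted (5 of 5, against 25.3% of all probes parted in that direction). Their differences ran between -0.48 and -0.22, well short of those of ACOT1 probe A and ACOT2 probe A, and none passed the test (limma, lowest adjusted p = 0.864, n = 2 and 2 clones). PAPLN, an extracellular matrix protein, gave -0.48 ± 0.20, and NUMB, an inhibitor of Notch signalling, gave -0.31 ± 0.10 and -0.24 ± 0.13. RIOX1, a ribosomal oxygenase, gave -0.22 ± 0.12, and HEATR4 gave -0.28 ± 0.13. In RefSeq, RIOX1 lies within the ACOT1 interval and HEATR4 spans the cluster, so neither lies wholly outside it. In HCT116 the same 5 probes were 0 of 5 lower, at 0.024 to 0.232, with 1 parted higher, as were 13.1% of all probes. Over all genes, 13483 were higher and 6563 lower in HCT116. In ARPE-19, 3 of the 5 probes were lower, 2 were parted lower and 1 parted higher (17.2% and 17.3% of all probes). On the side of ACOT6, 9 probes of DNAL1, PNMA1, MIDEAS, PTGR2 and ZNF410 ran between -0.20 and 0.12 in HT1080, with 7 lower and 2 of them parted. Neighbouring genes were measured in the same 4 clones and are not separate replicates, and the copy number of the region was not tested.

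**Figure D2:**
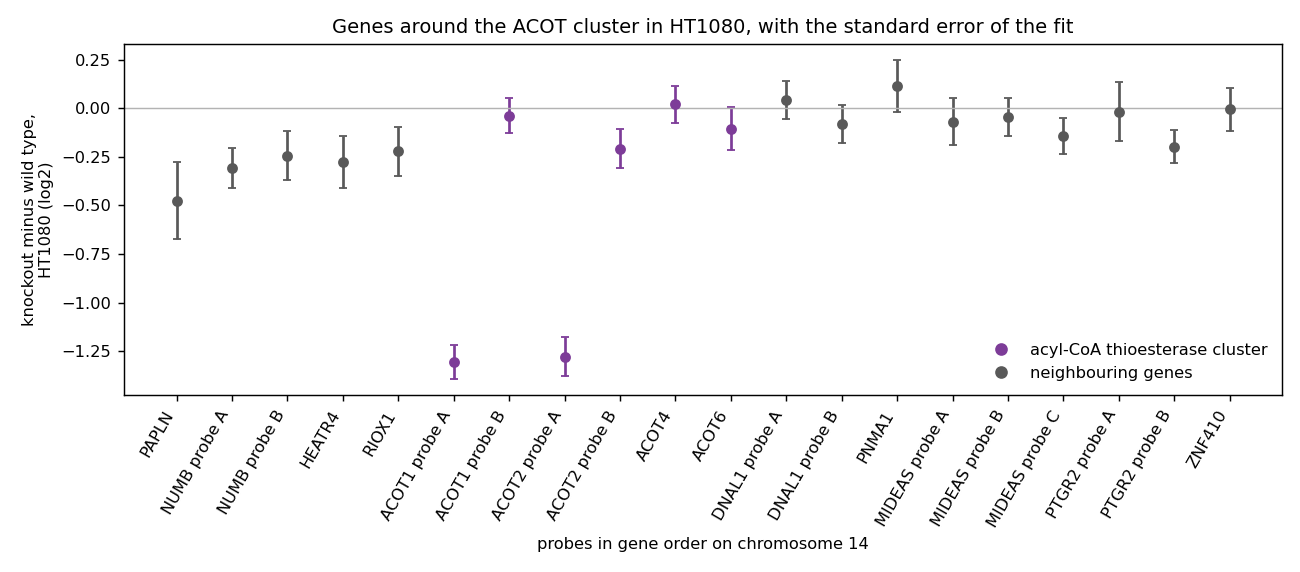
Knockout minus wild type in HT1080 (log2, vertical axis; bars are the standard error of the fit, n = 2 and 2 clones) for each probe in gene order on chromosome 14, with the ACOT cluster in purple and its neighbours in grey. ACOT1 probe A and ACOT2 probe A lie near -1.3, and all other probes between -0.48 and 0.12.

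In HCT116, no member probe passed the test between knockout and wild-type clones: 0 of 17, against 0.0317% of all probes (limma, adjusted p under 0.05). Unadjusted, 2 of the 17 had p under 0.05, against 3937 of all 47323 probes (limma). The adjusted p of the 17 ran from 0.590 to 0.997. ACOT1 probe A stood at 0.22 and 0.21 in knockout clone 10, at -0.08 and 0.31 in clone 21 and at 0.04 and 0.03 in clone 28. It stood at -0.33 and 0.05 in wild-type clone 15, at -0.03 and -0.16 in clone 20 and at -0.26 and -0.20 in clone 23. Arrays overlapped, but all knockout clone means lay above all wild-type clone means, with a difference of 0.28 ± 0.08 (SE, n = 3 and 3 clones; limma, adjusted p = 0.590). The sign is opposite to that in HT1080.

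The other probes of the cluster in HCT116 differed less. ACOT1 probe B differed by 0.00074 ± 0.075 (limma, adjusted p = 0.997), ACOT2 probe A by 0.11 ± 0.08 (limma, adjusted p = 0.675) and ACOT2 probe B by 0.13 ± 0.08 (limma, adjusted p = 0.639), with 3 clones of each genotype. ACOT4 differed by 0.13 ± 0.08 (limma, adjusted p = 0.621). Among the type II genes, ACOT7 probe E gave 0.22 ± 0.08 (limma, adjusted p = 0.591), ACOT9 probe B 0.21 ± 0.13 (limma, adjusted p = 0.645) and ACOT11 probe B 0.18 ± 0.09 (limma, adjusted p = 0.600). Without knockout clone 21 ACOT9 probe B gave 0.35, and without knockout clone 28 it gave 0.11. ACOT7 probe E gave 0.39 with first arrays alone and 0.051 with second arrays alone, and ACOT2 probe B gave 0.016 and 0.24. ACOT8 and ACOT13 gave 0.076 ± 0.09 and -0.060 ± 0.07 (limma, adjusted p = 0.784 and 0.788), and leaving out 1 clone gave 0.0084 to 0.15 for ACOT8. Of the 17 probes 13 were higher and 4 lower, with a median of 0.11 beside 0.056 over all probes. The knockout clones lay wholly above the wild-type clones for 4 probes and wholly below for 1, where 13.1% and 2.58% of all probes did so.

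In ARPE-19, too, 0 of 17 member probes passed the test, against 0.294% of all probes (limma, lowest adjusted p = 0.888, n = 2 and 2 clones). Unadjusted, 0 of the 17 had p under 0.05, against 2671 of all 47319 probes (limma). The 17 differences ran from -0.167 to 0.293, with 9 higher and 8 lower and a median of 0.041 beside 4e-05 over all probes. ACOT1 probes A and B gave 0.061 ± 0.13 and 0.29 ± 0.16, and ACOT2 probes A and B gave 0.19 ± 0.12 and 0.042 ± 0.11. ACOT1 probe B stood at -0.03 in knockout clone 25 and 0.26 in knockout clone 30, against 0.03 in wild-type clone 23 and -0.38 in the parental culture, so its genotypes overlapped. Without the parental culture ACOT1 probe B gave 0.089, and without wild-type clone 23 it gave 0.50. For ACOT2 probe A the same omissions gave 0.088 and 0.29. For 3 probes the knockout clones lay wholly higher and for 5 wholly lower, where 17.3% and 17.2% of all probes did so.

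**Figure D3:**
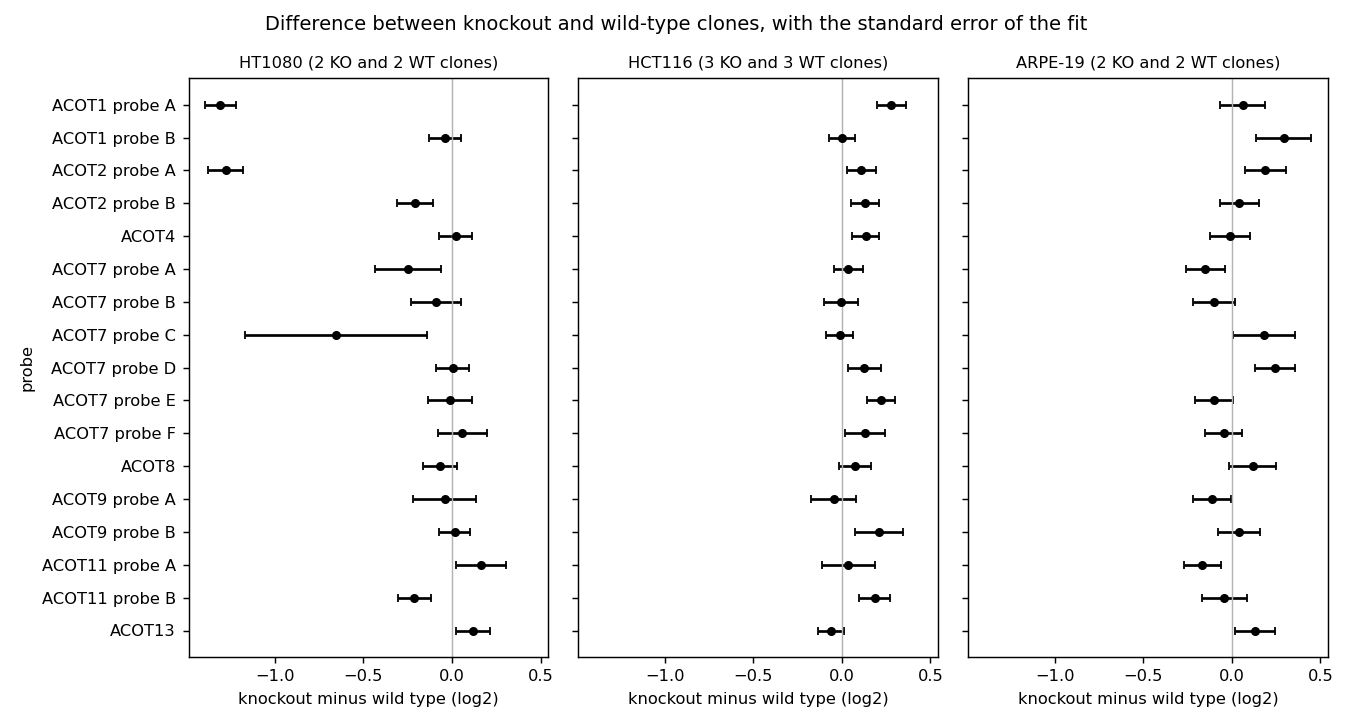
Knockout minus wild type (log2, horizontal axis; bars are the standard error of the fit) for the 17 member probes in HT1080, HCT116 and ARPE-19. ACOT1 probe A and ACOT2 probe A in HT1080 stand apart at -1.31 and -1.28, and ACOT7 probe C in HT1080 has the widest bar.

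Set side by side, the HCT116 difference minus the HT1080 difference was 1.59 ± 0.12 for ACOT1 probe A and 1.39 ± 0.12 for ACOT2 probe A (SE, n = 10 clones). It was 0.039 ± 0.11 for ACOT1 probe B. For ACOT2 probe B it was 0.34 ± 0.12, but -0.022 with first arrays alone and 0.70 with second arrays alone. These values took part in the choice of the genes. Of all probes, 0.0296% passed the test of this difference and 0.00423% passed the test within HT1080.

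Across the 17 probes in HT1080, 6 were higher and 11 lower in the knockout clones, with a median of -0.040 beside -0.037 over all probes. The knockout clones lay wholly lower for 4 probes (25.3% of all probes) and wholly higher for 1 (11.7% of all probes). The 4 lower ones were ACOT1 probe A, both ACOT2 probes and ACOT11 probe B, and the higher one was ACOT13. ACOT11 is a lipid-binding thioesterase known in mice from cold-exposed brown fat, and its probe B stood at -0.21 and -0.06 in knockout clone 8 and at -0.21 and 0.01 in clone 21. It stood at -0.01 and 0.30 in wild-type clone 2 and at 0.02 and 0.07 in clone 9, so the arrays overlapped (-0.21 ± 0.09). ACOT13, the small enzyme also called THEM2, gave 0.12 ± 0.10. ACOT8, the broad peroxisomal enzyme, gave -0.069 ± 0.10 with overlap, and the mitochondrial ACOT9 gave -0.040 ± 0.18 and 0.015 ± 0.09 on its 2 probes. ACOT9 probe A moved to -0.30 without wild-type clone 2 and to 0.22 without wild-type clone 9.

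Variation among clones that share a genotype was tested with an F test over arrays (limma, each clone as a level). In HT1080 this test passed for 3 of 17 member probes, ACOT7 probes A and C and ACOT9 probe A, where 8.74% of all probes passed. In HCT116 it passed for 3 of 17, ACOT9 probes A and B and ACOT11 probe A, where 10.5% of all probes passed. ACOT1 probe A and ACOT2 probe A did not pass in HT1080 (limma F test, adjusted p = 0.947 and 0.831) or in HCT116 (adjusted p = 0.790 and 0.844). The error in this test is the spread between the 2 arrays of a clone, and nothing in the labels says that these came from separate cultures, so its p-values may measure technical spread alone.

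ACOT7 is a cytosolic enzyme abundant in brain that acts on long-chain acyl-CoA such as arachidonoyl-CoA. In HT1080 its probe C showed the widest spread between clones of a genotype among the 17 member probes. In HCT116 the knockout clones differed by up to 0.13 on probe C and the wild-type clones by up to 0.084. The widest HCT116 spread was 0.49, among the knockout clones on ACOT9 probe B. ACOT7 probe C (ILMN_1784756, annotated to transcript NM_181866) stood at -0.66 and -0.76 in HT1080 knockout clone 8 and at 0.40 and 0.19 in knockout clone 21. It stood at 1.10 and 1.16 in wild-type clone 2 and at -0.19 and -0.28 in wild-type clone 9. Both arrays of each clone lay close together, and neither genotype was alike within itself: the knockout clones differed by 1.00 and the wild-type clones by 1.37, against an SD of 0.0925 between arrays of a clone (limma F test, adjusted p = 2.71e-06). The genotypes overlapped, and the knockout minus wild-type difference of -0.65 ± 0.51 was little larger than its error and was 0.029 without wild-type clone 2.

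ACOT7 probe A (ILMN_1719178) was high in 1 clone. It stood at 0.42 and 0.56 in HT1080 wild-type clone 2, and at -0.03 and -0.09 in knockout clone 8, 0.03 and -0.04 in knockout clone 21, and 0.09 and -0.21 in wild-type clone 9 (limma F test, adjusted p = 0.0283). Its difference between genotypes was -0.25 ± 0.19, and 0.030 without wild-type clone 2. The other 4 ACOT7 probes, of which B shares transcript NM_181864 with probe A, D is annotated to NM_181865 and E and F to NM_007274, had differences between HT1080 genotypes of -0.089 to 0.059. As on probe C, the HT1080 means of probes B, E and F were higher in knockout clone 21 and wild-type clone 2 than in knockout clone 8 and wild-type clone 9. These clone differences did not pass (limma F test, adjusted p = 0.115, 0.300 and 0.127). In HCT116 the genotype differences of the 6 ACOT7 probes ranged from -0.013 to 0.221.

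**Figure D4:**
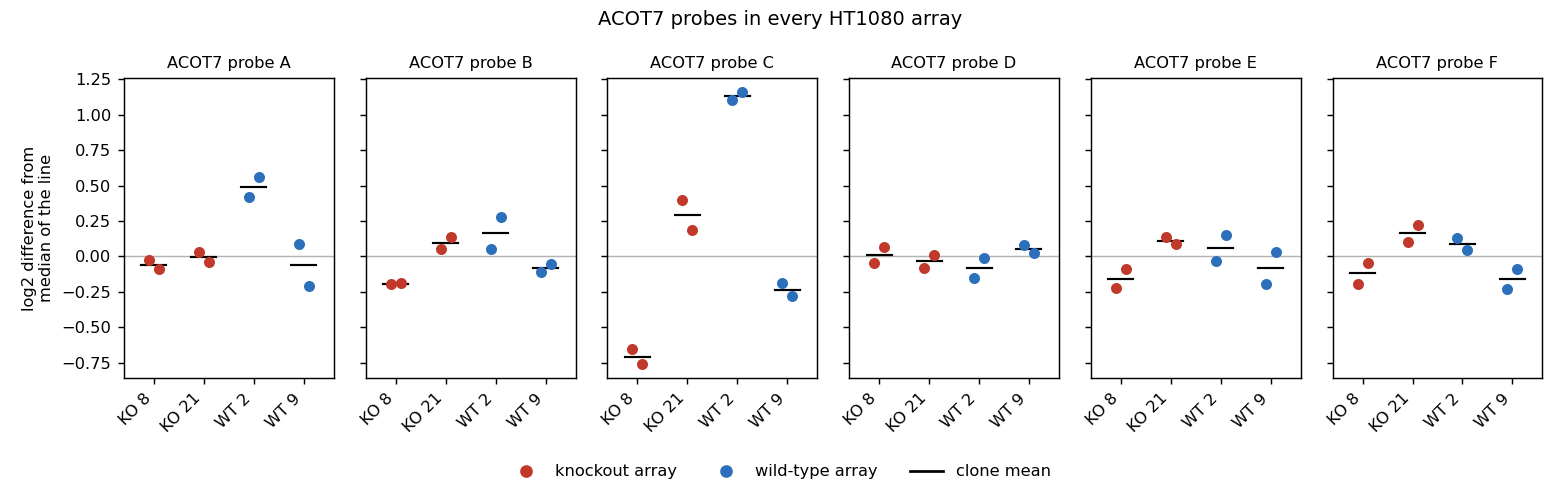
Log2 difference from the median of the line (vertical axis) in each HT1080 array for the 6 ACOT7 probes, with knockout in red, wild type in blue and clone means as black bars. Probe C is highest in wild-type clone 2 (1.10 and 1.16) and lowest in knockout clone 8 (-0.66 and -0.76), while probe D stays between -0.15 and 0.08.

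ACOT9 probe A (ILMN_1658995, NM_001033583) differed between the HT1080 wild-type clones, at -0.18 and -0.26 in clone 2 and 0.29 and 0.29 in clone 9 (limma F test, adjusted p = 0.0147). In HCT116 it was highest in wild-type clone 15, at 0.26 and 0.29, and lowest in knockout clone 21, at -0.12 and -0.34 (adjusted p = 0.0235). ACOT9 probe B (ILMN_2367070, NM_001037171) was also lower in HCT116 knockout clone 21, at -0.23 and -0.09, than in knockout clone 28, at 0.38 and 0.28 (adjusted p = 0.0218). ACOT11 probe A (ILMN_1739594, NM_147161) was high in HCT116 knockout clone 10, at 0.37 and 0.26, and low in wild-type clone 20, at -0.27 and -0.33. Within genotypes, its knockout clones differed by up to 0.47 and its wild-type clones by up to 0.42 (limma F test, adjusted p = 0.00292). These clone differences cut across the genotypes.

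**Figure D5:**
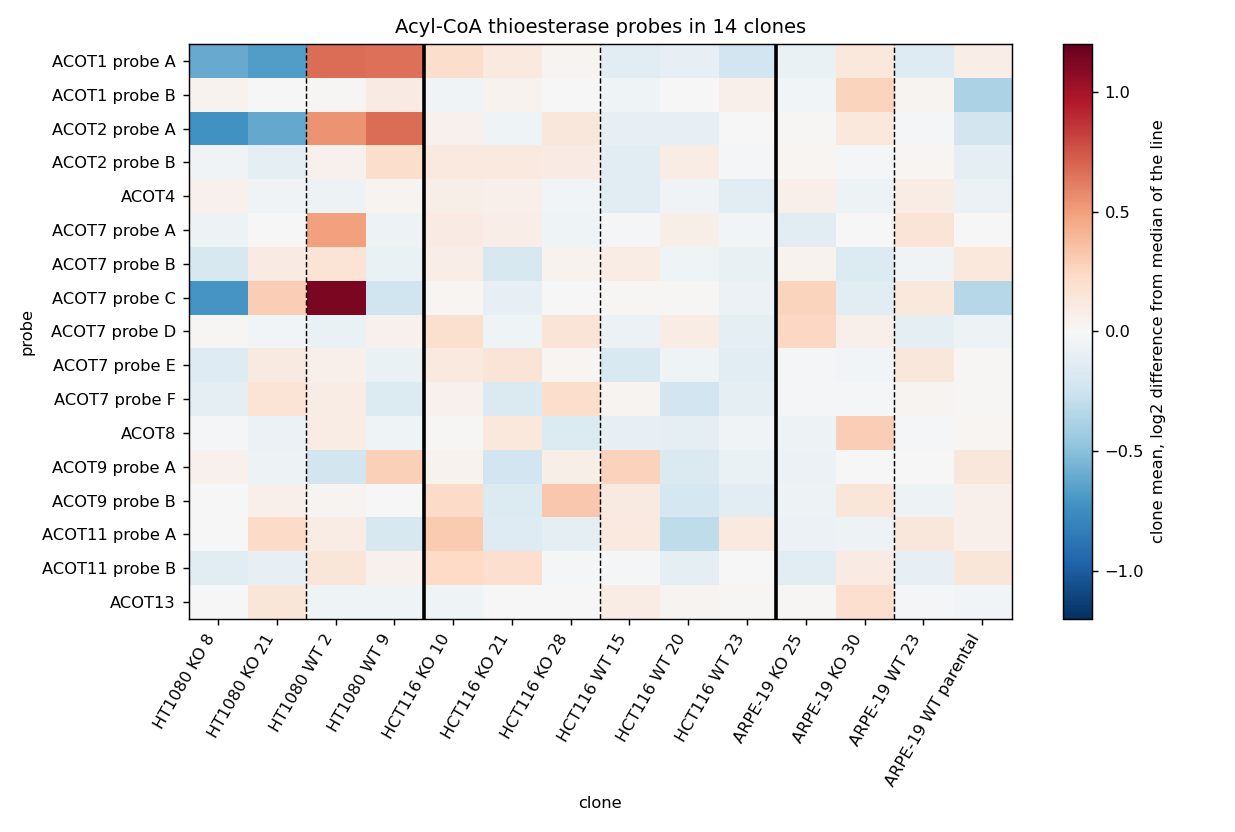
Mean of each clone (log2 difference from the median of its line, colour scale) for the 17 member probes in the 14 clones, knockout before wild type within each line. The 2 rows that part the HT1080 genotypes most are ACOT1 probe A and ACOT2 probe A, and the darkest single value is ACOT7 probe C in HT1080 wild-type clone 2.

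The genes most like ACOT1 and ACOT2, by Pearson correlation of gene values with the mean of the 4 probes over the 10 HT1080 and HCT116 clones, were AIM2 (0.955), SIGLEC14 (0.954), NDRG2 (0.951), MMP9 (0.950) and NTNG2 (0.947). Their knockout minus wild-type differences in HT1080 were -0.55, -0.99, -0.63, -0.80 and -0.29, and in HCT116 none of the 5 exceeded 0.091 in size. ACOT1 and ACOT2 were picked on the HT1080 difference, which makes up most of the variation of their mean over the 10 clones. Genes ranked by this correlation therefore had to be lower in HT1080 knockout clones and nearly level in HCT116, which is no separate finding. Ranked by Spearman correlation, the leading 5 were NTNG2, YPEL4, GGN, PNPLA7 and TACR2, so only NTNG2 was shared between the 2 rankings.

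Other genes of fatty acid activation and breakdown were read from 6 lists, and none passed the test in HT1080 or HCT116. Of all probes, only 0.00423% passed in HT1080 and 0.0317% in HCT116. Among other thioesterases, 10 of 11 were measured. In HT1080 4 were higher and 6 lower (median -0.029) and in HCT116 6 were higher and 4 lower (median 0.024). THEM6 differed by 0.29 ± 0.15 in HT1080, and the 2 probes of THEM5 by -0.14 ± 0.09 and -0.062. The lysosomal thioesterase PPT2 differed by 0.16 ± 0.07 in HCT116 on 1 of 3 probes, with the others at -0.057 and -0.061. Over all genes, 8297 were higher and 11749 lower in HT1080 and 13483 were higher and 6563 lower in HCT116, with medians of -0.027 and 0.047.

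The acyl-CoA synthetases, which make the substrate of the thioesterases, had 17 of 18 measured. In HT1080 7 were higher and 10 lower (median -0.042), and in HCT116 14 were higher and 3 lower (median 0.12). ACSL5, which activates long-chain fatty acids, gave 0.41 ± 0.10 in HT1080 and 1.72 ± 0.45 in HCT116 on 1 of its 5 probes (limma, adjusted p = 0.864 with n = 2 and 2 clones, and 0.549 with n = 3 and 3). Its other probes gave -0.063, -0.12, -0.19 and 0.031 in HT1080 and 0.11, 0.13, 0.67 and 1.71 in HCT116. On the ACSL5 probe at 1.72, HCT116 clone means ran from 0.063 to 1.73 in knockout and from -1.43 to -0.087 in wild-type clones. ACSS2, which activates acetate, gave -0.34 ± 0.10 in HT1080 on 1 of 4 probes, with the others at -0.26 to -0.087. ACSL6 gave 0.19 ± 0.08 in HCT116 on 1 of 4 probes, with the others at -0.12 to 0.065.

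Acyl-CoA and fatty acid binding proteins had 12 of 13 measured, with 6 higher and 6 lower in HT1080 and 11 higher and 1 lower in HCT116 (medians -0.021 and 0.079). FABP1 gave -0.15 ± 0.09 in HT1080, and the 2 probes of ACBD7 gave -0.16 ± 0.10 and 0.22. In HCT116, ACBD6 and ACBD3 gave 0.19 ± 0.09 and -0.068 ± 0.07. All 20 mitochondrial beta-oxidation genes were measured, with 8 higher and 12 lower in HT1080 and 15 higher and 5 lower in HCT116 (medians -0.043 and 0.092). DECR1, a reductase for unsaturated acyl-CoA, gave -0.35 ± 0.16 and the short-chain dehydrogenase ACADS -0.33 ± 0.14 in HT1080. The thiolase ACAA2 gave -0.52 ± 0.14 and HADHA, a subunit of the trifunctional protein, 0.28 ± 0.10 in HCT116.

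Peroxisomal beta-oxidation had 15 of 17 measured, with 10 higher and 5 lower in HT1080 and 9 higher and 6 lower in HCT116 (medians 0.069 and 0.017). In ARPE-19, 1 gene of all 6 lists passed, where 0.294% of all probes passed. This was ECI2, an enoyl-CoA isomerase, with 1 probe higher by 2.53 ± 0.18 (limma, adjusted p = 0.000451, n = 2 and 2 clones). The other ECI2 probes gave -0.70 and 0.16. PPAR receptors, partners and targets had 15 of 18 measured, with 5 higher and 10 lower in HT1080 and 9 higher and 6 lower in HCT116 (medians -0.018 and 0.033). PPARGC1A, a coactivator of PPAR receptors, gave -0.50 ± 0.11 in HT1080 and PPARG -0.28 ± 0.09 on 1 of its 4 probes, with the others at -0.087 to 0.018. RXRA, the partner receptor, gave -0.29 ± 0.11 and the lipid droplet protein PLIN2 -0.21 ± 0.10 in HCT116, where the other PLIN2 probe gave -0.019. In ARPE-19 the medians of the 6 lists ran from -0.0046 to 0.026.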

How the data were processed

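Per the labels' protocols, total RNA was extracted on QIAGEN RNeasy columns and labelled with biotin using an Ambion MessageAmp kit. The deposited values were taken as log2 and had been centred by the authors, as the values show, on each probe's median within its line (largest such median 5e-07). Background correction and normalization are not given in the sources used here. The 24 arrays held 47323 probes, of which 30113 had 1 gene symbol, 8 several and 17202 none, and 4 had missing values in ARPE-19. Symbols were matched to RefSeq (GRCh38.p14) by Entrez identifier for 30074 probes.

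Arrays of a clone were averaged, so the clone was the replicate. Each line was fitted per probe with limma 3.58.1 (R 4.3.3; lmFit, eBayes, two-sided), with Benjamini-Hochberg adjustment over all probes and a threshold of 0.05. A probe is called parted where the clone means of the genotypes do not overlap. No filter on dim probes was possible. Genes named beyond the members were TERF2IP, 5 neighbouring genes on each side of the cluster, the 5 most alike genes and, per list, genes that passed or else the 2 largest parted differences in HT1080 and in HCT116. The scripts were tested on simulated data. The members and lists were chosen with earlier results of these data known. The small numbers of arrays limit the precision.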

Additional observations from a re-analysis of the deposited data

Results flagged for a closer look

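Several probes differed in opposite directions between lines with every clone of a genotype on its own side, except where said. No test is given, because they were picked by that pattern or took part in the choice of the genes. Of all probes, knockout clones lay wholly lower for 25.3% in HT1080, 17.2% in ARPE-19 and 2.58% in HCT116. Knockout clones lay wholly higher for 11.7%, 17.3% and 13.1% in the same order. The share of all probes with opposite directions in a pair of lines was not counted. HCT116 minus HT1080 gave 1.59 for ACOT1 probe A, 1.39 for ACOT2 probe A, 0.34 for ACOT2 probe B (-0.022 with first arrays alone) and -0.18 for ACOT13. The HCT116 clones overlapped for ACOT2 probe A, which was listed through the fit of both lines together, and that fit took part in how the gene was chosen. HT1080 minus ARPE-19 gave -1.47 for ACOT2 probe A. HCT116 minus ARPE-19 gave 0.32 for ACOT7 probe E and -0.19 for ACOT13. Among the neighbours of the cluster, HCT116 minus HT1080 gave 0.51 for HEATR4 and 0.37 for PTGR2 probe B, and HT1080 minus ARPE-19 gave -0.38 for NUMB probe B. No group held more than 3 clones, so no clone was tested as an outlier.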

How the results depend on the processing

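Counts of probes past the threshold depended on the processing. HCT116 had 15 probes, against 8 with arrays centred on their median, 25 with first arrays alone, 3 by the probe of largest variance per gene, 0 by gene means (1690 at unadjusted p under 0.05) and 0 to 164 leaving out each clone (0 without wild-type clone 23, 2442 unadjusted). HT1080 had 2, against 12 with first arrays, 9 with second arrays, 5 with a robust prior, 0 by gene means (1010 unadjusted) and 0 to 121 leaving out each clone (0 without knockout clone 8, 1473 unadjusted). ARPE-19 had 139, against 27 by gene means, 60 by variance and 122 to 379 leaving out clones. The difference between lines had 14, against 9 by gene means and 12 to 115 leaving out clones. With the array number as a replicate block and the clone as a random effect, the counts were 221, 89 and 219 in HCT116, HT1080 and their difference. With that block alone and each clone kept as a level, the F tests gave 4830 and 3969 (main 4981 and 4138). The numbers did not pair arrays (correlations -0.157 to 0.145 in HCT116 and -0.0424 to 0.121 in HT1080).
None of 148 alternative values for named members in HCT116 and ARPE-19 passed (lowest adjusted p = 0.304). Those that changed sign were ACOT1 probe B in HCT116 (-0.040 centred, -0.066 with first arrays, -0.027 to 0.030 leaving out clones), and in ARPE-19, leaving out clones, ACOT1 probe A (-0.057 to 0.179) and ACOT2 probe B (-0.023 to 0.108). In HT1080, ACOT1 probe A kept -1.34 to -1.28 and ACOT2 probe A -1.34 to -1.21 leaving out each clone, and gene means over both probes gave -0.67 and -0.74. ACOT7 probe C ran from -1.34 (without wild-type clone 9) to 0.029 (without wild-type clone 2). The calls among clones of a genotype for the named probes kept their side. With the mean of ACOT1 probe A and ACOT2 probe A as target, added after seeing the data, 4 of the 5 most alike genes were shared. The causes were not tested.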
